A study of Mus musculus with 20 samples.

Results

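The comparison described here is the step of C57BL/6J zygotes from G1 to G2, taken as the labels give it: 3 samples of zygotes in G2 set against 3 samples in G1, which are 6 of the 20 samples of the series. All samples were untreated. Eggs were matured in culture for 12 h after release from dbcAMP, a block to meiotic maturation, fertilized in vitro and kept in KSOM medium under 5% oxygen, and each sample was the poly(A) RNA of 10 to 15 pooled eggs or embryos, primed with oligo-dT in the Smart-seq2 protocol. The groups used here are C57BL/6J zygotes in G2, C57BL/6J zygotes in G1, and, only to place their values, C57BL/6J MII eggs (3 samples) and 2-cell embryos in G2 (3 samples), and zygotes of the F1 hybrid called B6CASTF1 in G2 and in G1 (3 samples each). Separate females or collection days are not recorded for the 3 samples of a group, so every p-value rests on how far samples of a group differ from each other, and that spread may be technical. A gene's overall mean was the same in each C57BL/6J comparison of successive stages. The authors' fit may therefore have taken its spread from MII eggs and 2-cell embryos as well as from zygotes.

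The fertilized egg begins life on RNA stored during oocyte growth. As the zygote passes from G1 through DNA replication to G2, its maternal and paternal genomes still lie in separate pronuclei, stored messages are translated, given longer or shorter poly(A) tails, and destroyed, and a first low wave of transcription, minor genome activation, begins. RNA captured by its poly(A) tail can therefore change because it was made, because it was destroyed or because its tail changed, and these cannot be told apart in these samples. Fewer cells per sample and less RNA per cell cannot be told apart either.

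The values are the authors' own comparison of G2 with G1, which lists 24411 gene symbols, of which 13264 had an adjusted p; 664 of these rose (5.01%) and 381 fell (2.87%). A mean normalized count of at least 100 over the 4 C57BL/6J stages was reached by 8637 genes, of which 8300 had an adjusted p; these are called tested below. Values of single samples are not in these tables and the depth is unknown. The level of a stage is therefore given as a stage mean, the mean normalized count implied by the authors' overall mean and their fold changes between stages. These levels are not divided by transcript length and are compared only within a gene. A gene is said to have risen or fallen when the authors' adjusted p was under 0.05. All 15 defining markers of oocytes and early embryos were tested and none was at 0, with a summed stage mean of 580348 in G2 and 519455 in G1. Most of each sum was Dppa3 alone, with 434077 in G2 and 250274 in G1. Of the 15 markers 1 rose (6.67%, beside 7.06% of all tested genes) and 3 fell (20%, beside 2.65%). Their median log2 fold change was -0.23. Markers of other cells summed to 1080 in G2 and 1185 in G1 for cumulus and granulosa cells (22 of 33 above 0), to 5308 and 4484 for sperm and testis (19 of 29) and to 718 and 843 for blood, immune and oviduct cells (13 of 23). Only 3 of this last group were tested. Alb, the albumin gene, rose, with 121 in G2 and 0.150 in G1, and Epcam fell, with 4.83 and 49.1.

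At a mean count of at least 100, 586 genes rose (7.06% of those tested) and 220 fell (2.65%) in the authors' deposited table. Where both stage means were at least 10, so that a fold can be read, the 490 genes that rose (6.38% of 7682) did so by a median of 3.19-fold, 153 of them by more than 4-fold and 35 by more than 8-fold. The 175 that fell (2.28%) did so by a median of 3.09-fold, 63 of them by more than 4-fold and 20 by more than 8-fold. Genes that rose made up 15.4% of all normalized counts in G2 and 6.05% in G1, and genes that fell made up 2.38% in G2 and 7.08% in G1. In 99 of the 806 calls (9.71% of the tested genes) a stage mean lay below 1, and for such genes no fold is given.

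**Figure D1:**
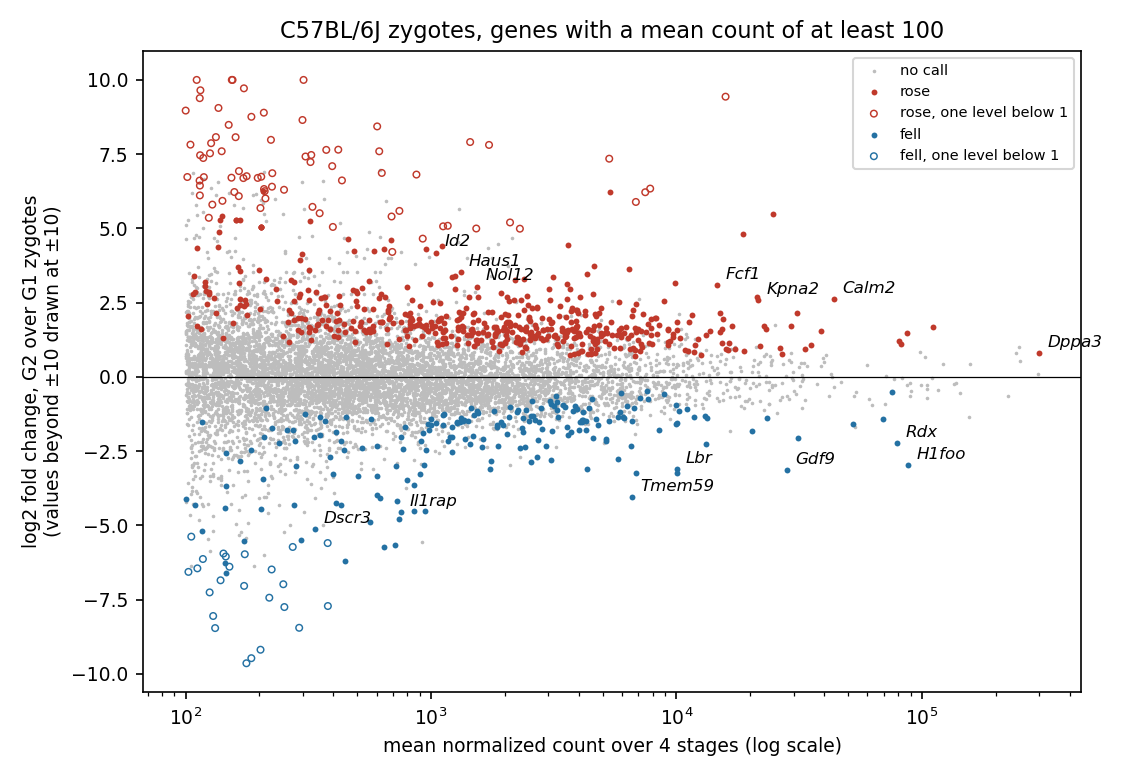
Log2 fold change of G2 over G1 zygotes in C57BL/6J (y axis) against the mean normalized count over 4 stages (x axis, log scale) for the 8300 tested genes, from the authors' deposited table. Red points are the 586 genes that rose, blue points the 220 that fell, open symbols calls with a stage mean below 1 and grey points genes without a call, and the spread of the grey points narrows towards high counts.

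The precision of the comparison depended strongly on the level of a gene. For the 5503 tested genes with mean counts of 100 to 1000 the SE of a log2 fold change had a median of 1.05 in the authors' deposited table, and 232 rose and 93 fell. For the 2522 genes between 1000 and 10000 the median SE was 0.47, and 308 rose and 109 fell. For the 275 genes above 10000 it was 0.34, and 46 rose (16.7%) and 18 fell (6.55%). The smallest change called at mean counts of 100 to 1000 was 1.03 on the log2 scale. How small a change could be detected was not tested. The level in zygotes can lie far from the mean count, as for Map1lc3b, with a mean count of 80950 but 2664 in G2 and 1155 in G1.

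Several of the fallen genes held a cytoplasmic polyadenylation element near the end of their 3' UTR, the sequence by which stored oocyte messages are known to receive new poly(A) when the egg matures. The windows below are shown because they belong to named genes of this step and let the element be seen in place; 30 bases each, transcript strand, 5' to 3', with the element in capitals, from the longest coding transcript of GENCODE M21 (GRCm38). The first 6 belong to genes that fell and the last 2 to genes that rose. They lie at chr11:53437863-53437892 (plus strand) for Gdf9, chr6:115950166-115950195 (plus) for H1foo, chr1:181815374-181815403 (minus) for Lbr, chr9:52088644-52088673 (plus) for Rdx, chr2:118641562-118641591 (plus) for Bub1b, chr6:83362373-83362402 (minus) for Tet3, chr17:87433514-87433543 (minus) for Calm2 and chr1:37987401-37987430 (minus) for Txndc9.
Gdf9: tggTTTTATgtgacggaagaataaactgtt
H1foo: agcTTTTATtgtctaataagctgtcacaat
Lbr: tgtTTTTAATttgatgtttggcaagctttg
Rdx: taaTTTTATgttgtacaagtaaattacaat
Bub1b: gtaTTTTATaataaaatagtttttgttaca
Tet3: taaaTTTTATatttattttttgcactcaaa
Calm2: ttcTTTTATtgttacttgctttttaaactt
Txndc9: tgaTTTTATcataacgtgattcttctatct
Among the fallen genes the element shown began 26 nt before the annotated transcript end in Tet3, 27 nt in Bub1b, 39 nt in Gdf9, 66 nt in Lbr, 68 nt in H1foo and 83 nt in Rdx. In the risen genes it began 34 nt before the end in Txndc9 and 129 nt in Calm2.

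Among the named genes that fell were known oocyte genes. Gdf9, a growth factor that the oocyte sends to its follicle (chromosome 11, 53431023 to 53437904, plus strand), had stage means of 83545 in MII eggs, 25963 in G1, 2958 in G2 and 391.8 in 2-cell embryos. Bmp15, its partner growth factor, had 26506 in G2 and 19601 in G1 and no call in the authors' deposited table (log2 fold change 0.44, adjusted p = 0.27, SE 0.22), so the pair did not share a call at this step. H1foo, the oocyte linker histone (chromosome 6, 115944938 to 115950236), had 236282, 102123, 12981 and 435 in the same 4 stages. Rdx, radixin, which ties actin filaments to the plasma membrane (chromosome 9, 52047173 to 52088735), fell by 2.24 (log2) in the authors' deposited table (adjusted p = 1.2e-07, SE 0.36) to 26993 in G2, against 127134 in G1. Zp3, of the zona pellucida, had 890 in G2 and 2220 in G1 and fell by 1.32 in the authors' deposited table (adjusted p = 3.0e-04, SE 0.29). Gpr3, the receptor that keeps the oocyte in meiotic arrest, had 76.4 in G2 and 342 in G1.

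Of 43 tested oocyte-specific genes 4 fell, Gdf9, H1foo, Zp3 and Gpr3 (9.30%, beside 2.65% of all tested genes), and 1 rose (2.33%, beside 7.06%), Cd9, the egg membrane protein needed for sperm fusion. Their median log2 fold change was -0.27, beside 0.04 for all tested genes. In B6CASTF1, at any mean count, 12 of 51 oocyte-specific genes rose and 12 fell. Beside them, 1303 of all 12517 genes tested in both strains rose there and 1335 fell. The subcortical maternal complex, a protein lattice under the egg membrane, had 0 calls among 10 tested genes with a median of -0.16, and the 14 Nlrp genes (median -0.20) and 6 Obox genes (median -0.15) had 0 calls as well, beside 9.71% of all tested genes. In B6CASTF1, 2 of 10 genes of the complex rose and 3 fell, 2 of 15 Nlrp genes rose and 2 fell, and 1 of 6 Obox genes fell. Obox5 had 108022 in G2 and 129318 in G1, and Btg4, an adaptor of the deadenylase that clears maternal RNA, had 92608 in G2 and 151508 in G1, without a call in the authors' deposited table (log2 fold change -0.71, adjusted p = 0.090, SE 0.27).

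The fallen gene with the smallest p was Lbr, the lamin B receptor of the inner nuclear membrane (chromosome 1, 181815335 to 181843046, minus strand). Its stage means were 30531 in MII eggs, 4326 in G1, 497 in G2 and 4974 in 2-cell embryos, and its G2 over G1 log2 fold change was -3.12 in the authors' deposited table (adjusted p = 8.7e-22, SE 0.30). G2 was thus the lowest of its 4 stages. Smc3, a subunit of the cohesin ring that holds sister chromatids together (chromosome 19, 53600398 to 53645833), had 1157 in G2 and 11006 in G1 and fell by 3.25 in the authors' deposited table (adjusted p = 2.7e-11, SE 0.43). Smu1, a splicing factor, had 3466 in G2 and 16805 in G1, Ing1, a reader of histone methylation, had 1282 in G2 and 4599 in G1, and Arl8b, a GTPase that positions lysosomes, had 452 in G2 and 1937 in G1. All 3 fell, with log2 fold changes of -2.28, -1.84 and -2.10 and adjusted p of 6.6e-12, 8.1e-10 and 1.5e-09 in the authors' deposited table.

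Of the single genes with the largest falls, Tmem59, a membrane protein of the Golgi and endosomes (chromosome 4, 107178399 to 107200996), had 9542 in MII eggs, 5363 in G1, 323 in G2 and 11036 in 2-cell embryos, and from G1 to G2 it fell by 4.06 in the authors' deposited table (adjusted p = 7.1e-09, SE 0.61). Il1rap, the accessory chain of the interleukin-1 receptor, had 21.3 in G2 and 504 in G1. Ccnyl1, a cyclin Y-like gene, had 61.2 in G2 and 1112 in G1, and Slmap, a membrane-bound partner of the STRIPAK phosphatase complex, had 63.8 in G2 and 793 in G1. The 12 largest falls among genes with at least 10 in both stages reached log2 values of -5.14 (Dscr3) to -3.29 (Alas1, the first enzyme of heme synthesis) in the authors' deposited table. Stk4 (13.1 in G2 and 260 in G1), Slc1a1 (10.5 and 200), Arsb (11.6 and 200) and Akap11 (16.0 and 205) stood only just above the minimum of 10 in G2, and each had an SE above 1 on the log2 scale.

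**Figure D2:**
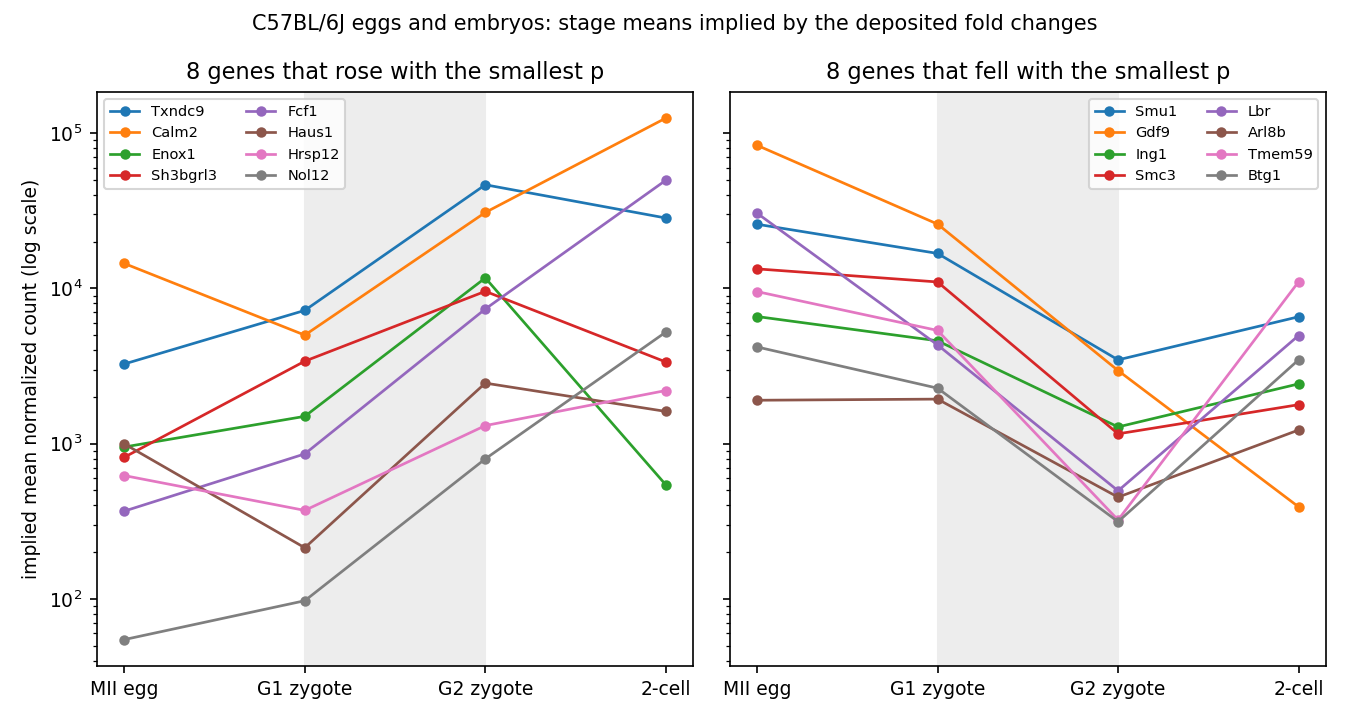
Stage means (y axis, log scale) of C57BL/6J MII eggs, G1 zygotes, G2 zygotes and 2-cell embryos for the 8 genes that rose (left) and the 8 that fell (right) with the smallest p from G1 to G2, each line a gene and the grey band the G1 to G2 step. Levels are implied by the authors' fold changes and carry no spread of their own; every falling line but that of Gdf9 is lowest in G2, and among the rising ones Enox1, Txndc9, Sh3bgrl3 and Haus1 are highest there.

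The genes that rose with the smallest p were led by Nol12, a nucleolar protein of ribosomal RNA processing (chromosome 15, 78934933 to 78943638, plus strand). Its stage means were 54.7 in MII eggs, 97.4 in G1, 799 in G2 and 5235 in 2-cell embryos, and the rise from G1 to G2 was 3.04 on the log2 scale in the authors' deposited table (adjusted p = 7.5e-61, SE 0.18). Fcf1, which matures the RNA of the small ribosomal subunit (chromosome 12, 84970897 to 84983303), went with it in level: 368, 859, 7371 and 49750 in the same 4 stages, a rise of 3.10 in the authors' deposited table (adjusted p = 1.3e-13, SE 0.38). Calm2, one of the genes that encode calmodulin, the calcium sensor (chromosome 17, 87433412 to 87446935, minus strand), had 14480, 5002, 30852 and 125064. It had fallen from MII eggs to G1 (log2 fold change -1.53, adjusted p = 4.7e-08) and rose by 2.62 from G1 to G2 in the authors' deposited tables (adjusted p = 2.3e-24, SE 0.24), which share their G1 samples.

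The same order, a lower level in G1 than in MII eggs and a higher one in G2, was seen for Haus1, a subunit of augmin, which nucleates microtubules within the spindle. Haus1 had 997 in MII eggs, 214 in G1, 2455 in G2 and 1614 in 2-cell embryos, and rose by 3.52 from G1 to G2 in the authors' deposited table (adjusted p = 1.3e-18, SE 0.37). It was the only one of 8 tested augmin genes with a call (12.5%, near the 9.71% of all tested genes). H3f3a, which encodes the replication-independent histone H3.3, had 27545, 6323, 14005 and 17746 and rose by 1.15 in the authors' deposited table (adjusted p = 1.6e-09, SE 0.17). Ccnb1ip1, a ubiquitin ligase known from meiotic crossover formation, had 135, 17.9, 352 and 3327 and rose by 4.30 in the authors' deposited table (adjusted p = 4.2e-05, SE 0.86). Calm2, H3f3a, ubiquitin and ribosomal protein genes have many near-identical pseudogene copies, among which reads may have been divided.

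Other genes were highest in G2 among the 4 stages. Enox1, a surface oxidase of NADH (chromosome 14, 77156763 to 77721760), had 952 in MII eggs, 1500 in G1, 11684 in G2 and 543 in 2-cell embryos, rising by 2.96 from G1 to G2 (SE 0.39, adjusted p = 1.9e-11) and falling by 4.43 to the 2-cell stage (adjusted p = 8.6e-28) in the authors' deposited tables, which share their G2 samples. Txndc9, a thioredoxin-domain partner of the CCT chaperonin, had 3260, 7220, 46521 and 28410, and Sh3bgrl3, a small protein with a thioredoxin fold, had 818, 3399, 9580 and 3359. Fbxw26, an F-box gene, had 1690, 2853, 12161 and 301. It was the only one of 47 tested F-box genes that rose (2.13%, beside 7.06% of all tested genes), and none fell (beside 2.65%). Casp8, an initiator caspase, had 1102, 2597, 7224 and 14.0. Each of these 4 rose from G1 to G2, with log2 fold changes of 2.69, 1.49, 2.09 and 1.48 and adjusted p of 1.1e-14, 4.4e-16, 8.4e-06 and 0.0037 in the authors' deposited table.

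A further group was low in eggs and continued upwards after G2. Id2, an inhibitor of basic helix-loop-helix factors known later in trophectoderm (chromosome 12, 25093799 to 25097140, minus strand), had 63.8 in MII eggs, 53.1 in G1, 965 in G2 and 3122 in 2-cell embryos and rose by 4.18 at this step in the authors' deposited table (adjusted p = 1.0e-10, SE 0.57). Tmsb4x, an actin-monomer binding peptide, had 13.8, 24.8, 488 and 2045, and rose by 4.30 in the authors' deposited table (adjusted p = 5.0e-06, SE 0.79). Among 52 tested candidate activation factors 3 rose (5.77%, beside 7.06% of all tested genes), Dppa4, Nanog and Wwtr1. The 2 that fell (3.85%, beside 2.65%) were Sall4 and Nr1h2. Dppa4, which with Dppa2 acts upstream of the 2-cell program in mouse embryonic stem cells, had 410 in G2 and 37.5 in G1, Nanog, a pluripotency factor, had 1657 in G2 and 507 in G1, and Sall4, a zinc finger factor of the same network, had 1623 in G2 and 7205 in G1. In B6CASTF1 Dppa4 also rose (log2 fold change 2.39) and Sall4 also fell (-1.62). Nanog had -0.26 there without a call in the authors' deposited table (adjusted p = 0.77). Its difference between strains, tested as described below, did not pass (adjusted p = 0.070). Of 34 tested 2-cell-specific genes 3 rose (8.82%, near the 7.06% of all tested genes) and none fell, with a median of 1.01. The change was positive in 25 and negative in 9. The 3 were Dcdc2c, which had 675 in G2 and 160 in G1, and Gm6763 and Gm5039, which stood at 2.54 and 0.837 in G1. At any mean count, 15 of 51 2-cell-specific genes rose in B6CASTF1 and none fell, with a median of 0.74. Beside them, 1303 of all 12517 genes tested in both strains rose there and 1335 fell.

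The largest rises of all carried wide errors. Zfp110, a zinc finger gene, had the highest log2 value among genes with at least 10 in both stages, 5.40 in the authors' deposited table (adjusted p = 0.023, SE 1.69), with 499 in G2 and 11.8 in G1. Vmn1r112 and Vmn1r157, vomeronasal receptor genes on chromosome 7, had identical values of 5.27 in the authors' deposited table (adjusted p = 0.0034, SE 1.37), and Vmn1r139, on the same chromosome, had 5.25 (SE 1.45, adjusted p = 0.0068). Such paralogs can share reads, so the 3 cannot be counted as separate genes.

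By sheer level, Dppa3, also called Stella, which protects maternal DNA methylation in the zygote, was the highest of the genes that rose, at 434077 in G2 and 250274 in G1, a log2 fold change of 0.79 in the authors' deposited table (adjusted p = 2.5e-05, SE 0.16). On the same counting Ccdc82 had 251439 in G2 and 78695 in G1, Ubb, a polyubiquitin gene, had 80312 and 36993, and H2-T23, a non-classical class I antigen, had 72793 and 26330. Rbx1 and Skp1a, the RING subunit and the adaptor of SCF ubiquitin ligases, had 52010 and 64649 in G2, against 27335 and 14678 in G1. Of the high genes that fell, Rbbp7, a histone-binding chaperone, had 38958 in G2 and 104707 in G1, and Hsp90aa1, the inducible Hsp90, had 68730 and 98247, a fall of 0.52 in the authors' deposited table (adjusted p = 0.018, SE 0.16).

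Of 58 tested regulators of meiotic exit, checkpoints and mitosis 7 rose (12.1%, beside 7.06% of all tested genes) and 2 fell (3.45%, beside 2.65%), with a median log2 fold change of 0.07. Cdk1, the kinase that drives entry into M phase, had 882 in MII eggs, 606 in G1, 2529 in G2 and 14832 in 2-cell embryos and rose by 2.06 from G1 to G2 in the authors' deposited table (adjusted p = 1.6e-05, SE 0.40). Birc5, survivin of the chromosomal passenger complex, had 27566 in G2 and 14670 in G1. Wee1, the kinase that restrains Cdk1, had 65.0 in G2 and 0.150 in G1. Chosen after their values were seen, Ensa and Arpp19, which inhibit the phosphatase opposing Cdk1, had 1408 and 8795 in G2, against 367 and 2945 in G1, and Anapc15 and Ska3 made up the 7.

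The 2 that fell were Mos, the kinase of meiotic arrest, and Bub1b, the spindle checkpoint kinase (chromosome 2, 118598211 to 118641591). Bub1b had 1325 in G2 and 12598 in G1 and fell by 3.25 in the authors' deposited table (adjusted p = 6.6e-05, SE 0.67). Bub3, its partner, had 4370 in G2 and 2297 in G1 without a call in the authors' deposited table (log2 fold change 0.93, adjusted p = 0.56, SE 0.72).

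Of 40 tested cyclin and CDK regulators 4 rose (10%, beside 7.06% of all) and 3 fell (7.5%, beside 2.65%). Cdk7 and Ccnh, the kinase and cyclin of the CDK-activating complex that is also part of TFIIH, both rose: Cdk7 had 8474 in G2 and 4330 in G1, and Ccnh had 373 and 71.1, with log2 fold changes of 0.97 and 2.39 and adjusted p of 0.0013 and 1.5e-04 in the authors' deposited table. Skp1a and Cdk10 were the others that rose, Cdk10 with 0.150 in G1. Ccne1, the cyclin of entry into S phase, was among those that fell, with 2.76 in G2 and 55.0 in G1. Replication genes had 1 rise among 55 (1.82%, beside 7.06% of all tested genes) and 3 falls (5.45%, beside 2.65%), with a median of -0.24. Gins1, of the replicative helicase, had 1897 in G2 and 643 in G1. Orc5, of the origin complex, had 6196 and 18146, Top1, a topoisomerase, 6421 and 10737, and Pole3, a histone-fold subunit of polymerase epsilon, 453 and 1172. Of 67 repair genes 1 rose (1.49%) and 3 fell (4.48%), and of 16 centromere genes 1 rose (6.25%, near the 7.06% of all), Cenpq.

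Of 49 tested genes of deadenylation, decapping and decay, 1 rose (2.04%, beside 7.06% of all tested genes) and 1 fell (2.04%, near the 2.65% of all), and the median was -0.52. Cnot1, the scaffold of the CCR4-NOT deadenylase (chromosome 8, 95719451 to 95807464), had 81.9 in MII eggs, 440 in G1, 1443 in G2 and 2195 in 2-cell embryos and rose by 1.71 from G1 to G2 in the authors' deposited table (adjusted p = 7.7e-06, SE 0.32). Btg1, which binds that complex, had 315 in G2 and 2278 in G1 and fell by 2.86 in the authors' deposited table (adjusted p = 5.7e-09, SE 0.43). Of 52 genes of mRNA storage and poly(A) control, 1 rose (1.92%, beside 7.06%) and 1 fell (1.92%, beside 2.65%). Paip2, which inhibits the poly(A)-binding protein, rose, with 3464 in G2 and 1162 in G1, and Papd7, a poly(A) polymerase of the TENT family, fell, with 1735 and 3055. General transcription genes gave 4 rises (4.82%, beside 7.06%) and 3 falls (3.61%, beside 2.65%) among 83 tested. Taf8 (1176 in G2 and 4554 in G1) and Gtf2a1 (3422 and 8992) fell, and Taf11 (405 and 142) and Med16 (284 and 31.0) rose.

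Of 66 histone-modifying enzymes and their partners none rose, beside 7.06% of all tested genes, and 3 fell (4.55%, beside 2.65%), Rbbp7, Ezh1 and Hdac1 (median -0.33), and of 37 remodelers none was called (median -0.39). In B6CASTF1, at any mean count, 6 of 84 such enzymes and partners rose and 14 fell, and 3 of 46 remodelers rose and 7 fell. Beside them, 1303 of all 12517 genes tested in both strains rose there and 1335 fell. Among the 8266 of these with a C57BL/6J mean count of at least 100, 13.3% rose there and 14.8% fell. Rbbp7 fell there too, while Ezh1 and Hdac1 had log2 fold changes of 0.11 and 0.86 without a call. Hdac1 had only 4.49 in G2 of C57BL/6J. Tet3, which oxidizes 5-methylcytosine in the paternal genome (chromosome 6, 83362373 to 83459084), had 2536 in G2 and 5629 in G1, and Trim28, a corepressor that guards imprints, had 447 and 1259. Both fell, with adjusted p of 0.0084 and 0.042 in the authors' deposited table. Among 37 histone variants and chaperones H3f3a, Hmgn2 and Hira rose (8.11%, near the 7.06% of all) and H1foo and Hmgb3 fell (5.41%, beside 2.65%). Hira, the chaperone of H3.3, had 161 in G2 and 4.13 in G1.

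Proteostasis genes were called in both directions. Of 28 tested E2 ubiquitin-conjugating enzymes 7 rose (25%, beside 7.06% of all tested genes) and 1 fell (3.57%, beside 2.65%), with a median of 0.43. Ube2t, a partner of the Fanconi pathway, had 6828 in G2 and 3687 in G1, Ube2v2, 2610 and 831, Ube2a, 1068 and 275, and Ube2w, 5589 and 2282. Of 42 proteasome genes 5 rose (11.9%) and 1 fell (2.38%, near the share of all genes). The catalytic subunit Psmb7 had 1881 in G2 and 196 in G1 and rose by 3.26 (SE 0.50, adjusted p = 1.3e-08), while Psmb5, another, had 29.3 and 87.4 and fell by 1.58 in the authors' deposited table (adjusted p = 1.9e-04, SE 0.34). Of 45 heat shock and DnaJ genes 3 rose and 3 fell (6.67% each, beside 7.06% and 2.65% of all tested genes). Dnajc3, a stress chaperone of the endoplasmic reticulum, had 1040 in G2 and 7047 in G1. Of 49 translation initiation factors 6 rose (12.2%) and 2 fell (4.08%): Eif3m had 1940 in G2 and 252 in G1 and Eif1ax 3521 and 771, while Eif5b had 6029 and 12691.

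Kpna2, the importin alpha abundant in embryos (chromosome 11, 106988629 to 106999541), had 6019 in MII eggs, 3693 in G1, 22067 in G2 and 54483 in 2-cell embryos and rose by 2.58 from G1 to G2 in the authors' deposited table (adjusted p = 7.3e-11, SE 0.35). It was the only one of 17 tested karyopherins with a call (5.88%, beside 9.71% of all tested genes). Of 18 nucleoporins none rose and Nup35 and Nup54 fell (11.1%, beside 2.65% of all tested genes). Of 30 Sm, LSm and SF3 genes 6 rose (20%, beside 7.06% of all tested genes) and 1 fell (3.33%), among them Lsm3, with 16493 in G2 and 3779 in G1, and Snrpc, with 546 and 118. At any mean count, 6 of 32 Sm, LSm and SF3 genes rose in B6CASTF1 and 6 fell, with a median of -0.09.

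Mitochondrial genes other than those of the respiratory chain also had upward calls. Of 20 tested genes of the TIM and TOM import machinery 7 rose (35%, beside 7.06% of all tested genes) and none fell, with a median of 0.63. Timm17a, a core of the inner membrane translocase (chromosome 1, 135295213 to 135313778), had 274 in MII eggs, 696 in G1, 6155 in G2 and 32279 in 2-cell embryos, and rose by 3.14 from G1 to G2 in the authors' deposited table (adjusted p = 5.9e-11, SE 0.42). Timm9, a carrier chaperone of the intermembrane space, had 1665, 507, 3280 and 780. Of 75 mitochondrial ribosomal proteins 17 rose (22.7%) and 1 fell (1.33%), with a median of 0.43. Mrps33 had 36197 in G2 and 9384 in G1 and rose by 1.95, while Mrps36, now placed with the 2-oxoglutarate dehydrogenase complex, had 1342 and 5561 and fell by 2.05 (adjusted p = 4.5e-06 and 5.6e-08 in the authors' deposited table).

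Of 43 tested glycolysis and TCA cycle genes 6 rose (14.0%, beside 7.06% of all tested genes) and none fell, although the median was -0.16. Mdh2, malate dehydrogenase, had 542 in G2 and 137 in G1, Ogdh, of the 2-oxoglutarate dehydrogenase complex, 5903 and 1734, and Sdhd, of succinate dehydrogenase, 1353 and 465. At any mean count, 7 of 56 glycolysis and TCA cycle genes rose in B6CASTF1 and 7 fell. Of 31 stress and apoptosis genes 6 rose (19.4%) and none fell, with a median of 0.55, and 3 of the 6 had a G1 stage mean below 1. Cycs, cytochrome c, had 13330 in G2 and 6978 in G1. At any mean count, 5 of 50 stress and apoptosis genes rose in B6CASTF1 and 5 fell. Of 25 tested genes of egg activation and calcium signalling 2 rose (8%, near the share of all genes), Calm2 and Cd9, and 2 fell (8%, beside 2.65%), Gpr3 and Slc39a10, a zinc importer with 3976 in G2 and 11207 in G1, and the zinc exporter Slc30a4 fell as well, with 55.9 and 563.

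**Figure D3:**
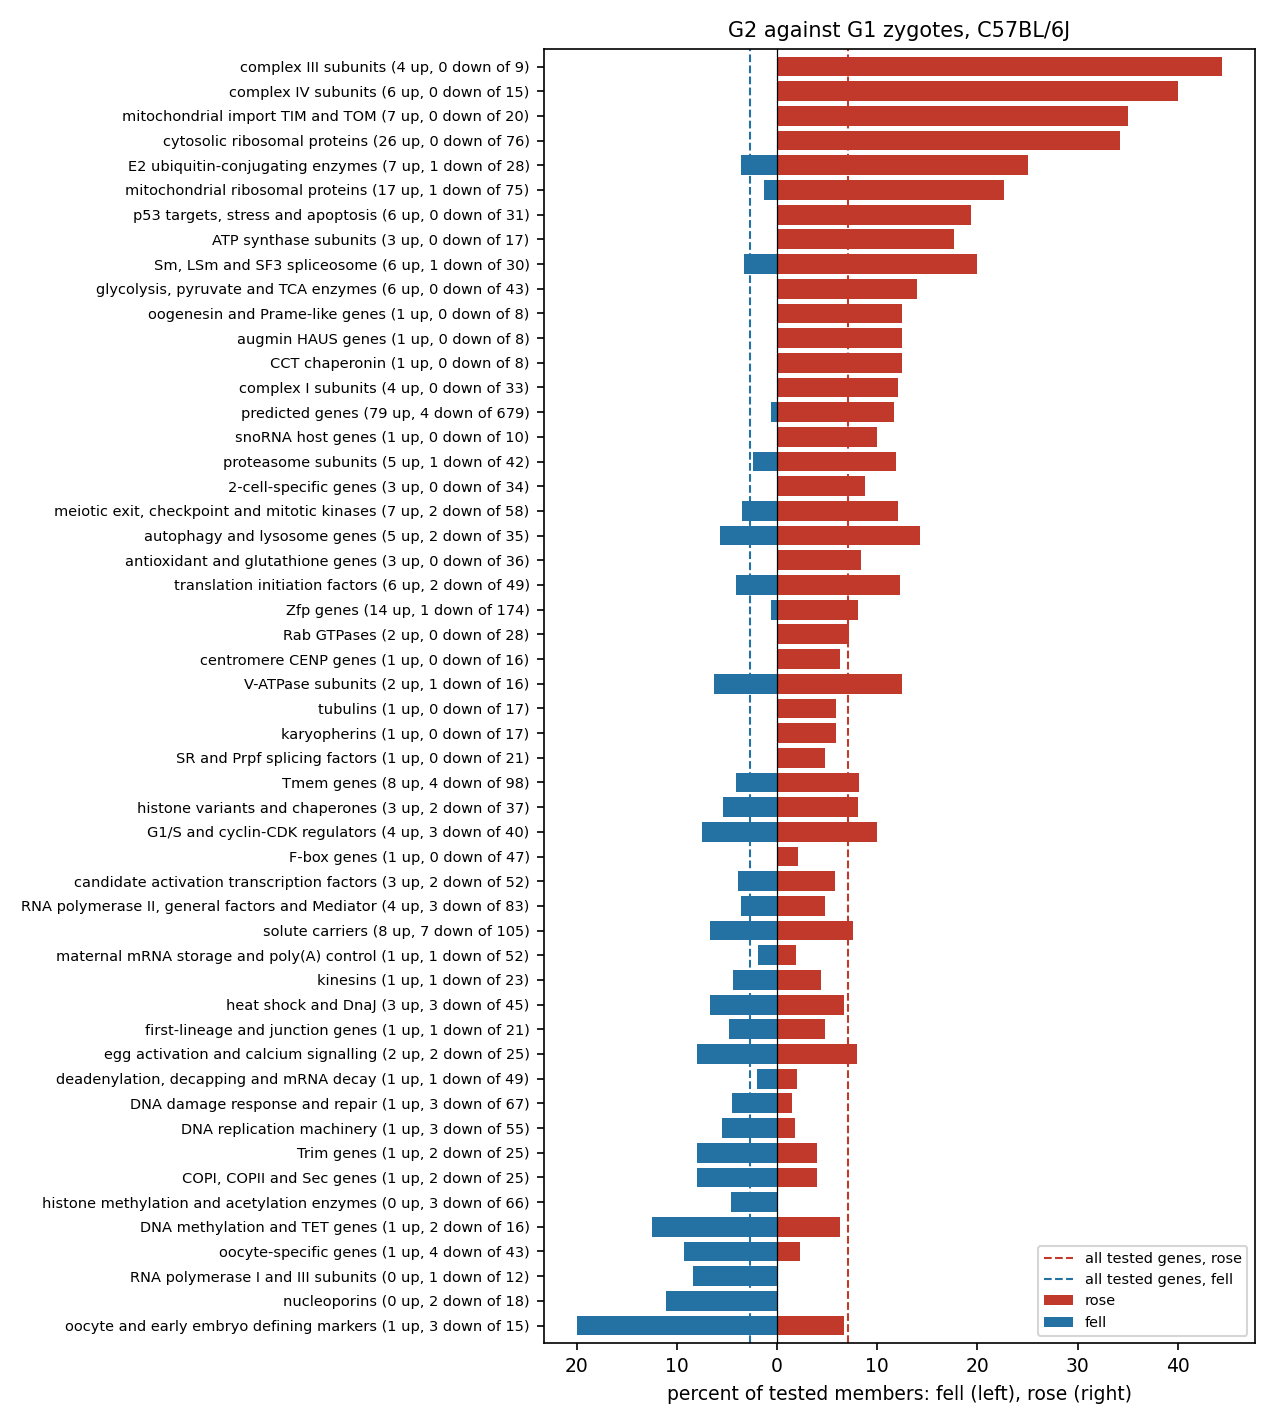
Percent of the tested members of each gene group with a mean count of at least 100 that rose (red, right) or fell (blue, left) from G1 to G2 in C57BL/6J, with the counts beside each name and dashed lines at 7.06% and 2.65% for all tested genes. Respiratory complex III and IV, TIM and TOM and cytosolic ribosomal protein genes have the highest shares that rose. The share of complex III rests on 4 of 9 genes, among them Uqcrc1, with 0.150 in G1. In B6CASTF1 none of these 9 rose and 2 fell. Groups without a call are not drawn, nor are the blood, immune and oviduct markers, with only 3 tested genes.

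Calls were also counted by transcript length. The longest coding transcript in GENCODE M21 was found for 7605 tested genes (91.6%). Its median length was 1898 nt for genes that rose, 2886 nt for genes that fell and 3118 nt for genes without a call. In the shortest 10% of transcripts, 216 to 1177 nt, 140 of 761 genes rose (18.4%) and 15 fell (1.97%), with a median log2 fold change of 0.66. In the longest 10%, 17 of 761 genes rose (2.23%) and 10 fell (1.31%), with a median of -0.23. The median SE was 0.60 in the shortest 10% and 0.79 to 0.85 in the other groups, so changes of the shortest transcripts were measured more precisely. With ribosomal and respiratory genes left out, 95 of the remaining 622 genes of the shortest transcripts rose (15.3%), with a median of 0.58, beside 34.2% and 0.84 for the 76 cytosolic ribosomal protein genes, whose median length was 926 nt. In B6CASTF1, 19.9% of the genes with the shortest transcripts rose and 8.85% fell, with a median of 0.13, and 6.57% of those with the longest rose and 13.9% fell, with a median of -0.15. How far length itself, or the precision that went with it, took part in the calls of any group was not tested.

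The polyadenylation element was searched for as TTTTAT or TTTTAAT, on the transcript strand only, in the last 150 nt of the 3' UTR, and the pair was counted once per gene. It was found in 1916 of 6998 genes (27.4%). Of the 196 genes that fell 39.3% held it, of the 434 that rose 19.6%, and of the 6368 without a call 27.5%. In the separate samples of B6CASTF1 the shares were 39.6% of 1118 genes that fell, 17.7% of 859 that rose and 26.3% of 4998 without a call. Genes with the element had a median log2 fold change of -0.22 in C57BL/6J, those without it of 0.03. The median T content of the window was 33.3% for genes that fell, 32% for genes that rose and 33.3% for all, and 37.3% with the element against 32% without it.

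Split into 4 groups of equal size by transcript length, the share with the element among fallen genes was 44.4%, 37.5%, 35.7% and 39.5% from short to long, and among risen genes 19.7%, 10.5%, 18.1% and 35.1%. Among genes without a call it was 23.7%, 27.3%, 28.3% and 30.5%. Fallen genes had a higher share than genes without a call in each group, whereas risen genes had a lower share in the 3 shorter groups and a higher one among the longest transcripts, where 38 genes fell and 57 rose. Of the single named genes with a window, 13 of 27 that fell and 4 of 23 that rose held the element. Smc3, Smu1, Tmem59 and Btg1 fell without it in this window, which says only that these letters are absent there.

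**Figure D4:**
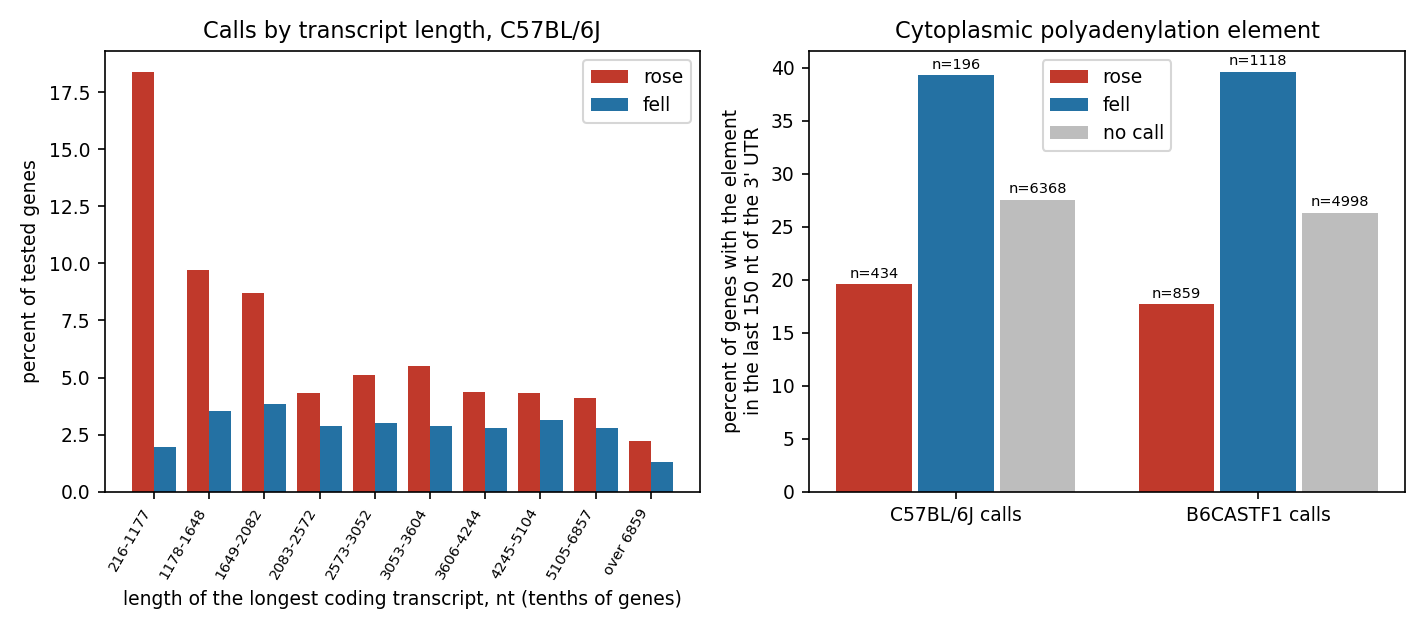
Left, percent of tested genes that rose (red) or fell (blue) in C57BL/6J by transcript length in nt, in 10 groups of equal size; right, percent of genes with the polyadenylation element in the last 150 nt of the 3' UTR among genes that rose, fell or had no call in each strain, with the number of genes above each bar. The share that rose is 18.4% at the short end, and fallen genes hold the element most often in both strains.

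The zygotes of B6CASTF1 give the same step in separate samples, whose females and collection days are not recorded either. Precision was higher there: the median SE was 0.41 at mean counts of 100 to 1000 and 0.21 at 1000 to 10000 in the authors' deposited table. The counts here are of the 8266 genes tested in both strains with a C57BL/6J mean count of at least 100. Of 580 that rose in C57BL/6J, 281 also rose in B6CASTF1 (48.4%), beside 13.3% of all 8266, and 11 fell. These 281 were 25.5% of the 1101 that rose in B6CASTF1. Of 220 that fell, 145 also fell in B6CASTF1 (65.9%), beside 14.8% of all, and 4 rose, and the 145 were 11.8% of the 1224 that fell there. With at least 10 in both stages of C57BL/6J, 54.5% of 490 risen and 79.4% of 175 fallen genes had the same call in B6CASTF1.

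Of the 8 genes per direction with the smallest p, all but Hrsp12 were called in the same direction in B6CASTF1. Hrsp12 had a log2 fold change of 1.81 in C57BL/6J and 0.66 without a call in B6CASTF1 (adjusted p = 0.23) in the authors' deposited tables. In C57BL/6J and in B6CASTF1, the log2 fold change was 3.04 and 2.89 for Nol12, 2.62 and 2.43 for Calm2, 3.52 and 3.34 for Haus1, 4.18 and 3.55 for Id2, -3.12 and -2.21 for Lbr, -4.06 and -3.55 for Tmem59 and -3.25 and -2.48 for Smc3, in the authors' deposited tables. Each of these, among them Id2, which was named by its fold, was called in both. Kpna2 had 2.58 and 3.37 and Btg1 -2.86 and -3.39, also called in both.

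The difference between the strains was tested gene by gene as the difference of the authors' fold changes over their combined SE, and 240 of 12517 genes (1.92%) passed an adjusted p of 0.05, 110 with the higher change in C57BL/6J (0.879%) and 130 with the lower (1.04%). In 143 of these a C57BL/6J stage mean lay below 1. With mean counts of at least 100 in both strains and stage means of at least 10, 66 remained, 47 with the higher change in C57BL/6J and 19 with the lower. Dppa3 was among them: its log2 fold change was 0.79 in C57BL/6J and -0.02 in B6CASTF1, a difference of 0.82 (adjusted p = 0.011). So was Map1lc3b, the LC3 protein of autophagosomes, with 1.21 in C57BL/6J and -0.11 in B6CASTF1 (adjusted p = 5.9e-04). H2-T23 had 1.47 and -0.28 (adjusted p = 0.042), Gpr3 -2.16 and -0.05 (adjusted p = 0.036) and Psmb5 -1.58 and -0.05 (adjusted p = 0.021). Of the large folds without a call in B6CASTF1, some passed this test, such as Med16 (3.20 and -1.11, adjusted p = 0.020), and others did not, such as Stk4 (-4.31 and -0.30, adjusted p = 0.099) and Zfp110 (5.40 and 0.26, adjusted p = 0.13).

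**Figure D5:**
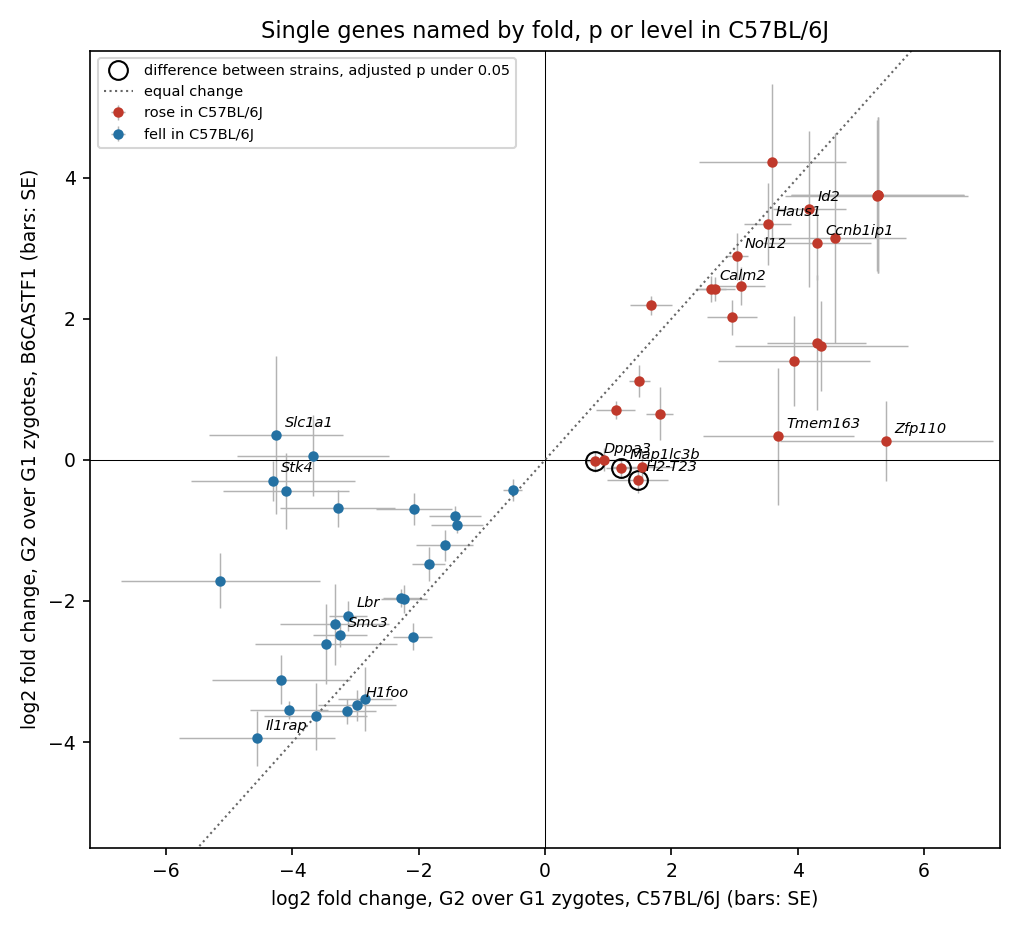
Log2 fold change of G2 over G1 zygotes in C57BL/6J (x axis) and in B6CASTF1 (y axis) for the single genes named by fold, p or level in C57BL/6J, with bars of 1 SE from the authors' deposited tables. The dotted line marks equal change, and rings mark Dppa3, Map1lc3b and H2-T23, the genes in the plot whose difference between strains passed an adjusted p of 0.05; genes were chosen on the C57BL/6J values, which favours larger values on that axis.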

How the data were processed

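Mouse eggs and embryos were pooled by 10 to 15 for each poly(A) RNA library. Per the submitters' processing notes, the authors' tools included kallisto, TopHat, Picard, bcl2fastq and DESeq2 (mm10), in roles not stated there, and the authors' file names give DESeq2 1.18.1. Each gene's deposited row holds, per the file headers, its normalized count averaged over samples (a signal), the log2 fold change, the SE of that change, the Wald statistic (a score), the p-value before and after adjustment, and the log2 fold change after shrinkage. Samples could not be tested anew; their depth is unknown, and the authors' SE is the measure of precision.

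Computed here were stage means from the overall mean and the fold changes of successive stages, 3 samples each; counts over 25 gene lists and 38 name families; and the strain difference with a normal p, adjusted by Benjamini-Hochberg, which was checked on simulated data. Of the gene symbols 23376 were found in GENCODE M21, which gave coordinates, lengths and 3' UTRs. The members, lists and rules were chosen with earlier results of these data known. Named genes were the 12 largest folds, 8 smallest p and 8 highest counts per direction (stage means of at least 10, mean count of at least 100, no predicted genes), up to 4 called members per list, and 18 fixed genes. Alternatives were another threshold or correction, recentring, SE raised 1.5 times and other filters. Computation used pandas 2.3.3, numpy 2.4.6 and scipy 1.17.1 under Python 3.11.15, with figures from matplotlib 3.10.9.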

Additional observations from a re-analysis of the deposited data

Results flagged for a closer look

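For 19 named genes without a stage mean below 1, the change from G1 to G2 differed between C57BL/6J and B6CASTF1 by the normal test of the difference at an adjusted p under 0.05. The values are log2 fold changes, C57BL/6J minus B6CASTF1. Among genes with a stage mean of at least 10 in both stages the change was higher in C57BL/6J for Slc23a1, a vitamin C transporter (difference 3.999), Med16, of the Mediator complex (4.30), Mrpl43 (2.39), Ogdh (1.88), Taf11 (1.76), H2-T23 (1.75), Dclre1c, the Artemis nuclease (1.60), Trim43b (1.43), Map1lc3b (1.32), Uqcr10 (1.196), Cycs (0.95) and Dppa3 (0.82). It was lower in C57BL/6J for Gpr3 (-2.11) and Psmb5 (-1.53).

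The other differences belong to genes with a low stage mean in C57BL/6J. Hira (difference 6.09) had 161 in G2 and 4.13 in G1, and Ctsa, a lysosomal protease (4.51), had 46.2 and 2.44. Ercc1, a repair nuclease subunit (-7.48), had 2.04 in G2 and 56 in G1, Hdac1, a histone deacetylase (-4.83), had 4.49 and 70.5, and Epcam, an adhesion molecule (-3.46), had 4.83 and 49.1.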

How the results depend on the processing

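Of the genes called, 664 rose and 381 fell among all 13264 tested; with an adjusted p under 0.01 these were 405 and 217, with Bonferroni correction 157 and 97, and with the SE raised 1.5 times 107 and 63. Requiring a stage mean of at least 10 in both stages left 178 of the falls. At the minimum mean count of 100, 586 rose and 220 fell; the same 3 settings gave 360 and 112, 133 and 53, and 91 and 33. For the difference between strains (110 higher and 130 lower in C57BL/6J), the same minimum applied in each strain gave 66 and 39, and the raised SE 10 and 20. Recentring removed 0.04 in C57BL/6J and -0.06 in B6CASTF1 on the log2 scale and ended 2 of the 193 calls of named genes, Kifc1 and Pramel6. The raised SE ended 133 of them; Nol12, Calm2, Haus1, Id2, Lbr, Smc3 and Gdf9 are among those it left. No named gene changed direction under any of these settings or in the shrunken values. With a window of 100 nt, chosen after seeing the data, the element was found in 34.2% of genes that fell, 15.7% of those that rose and 21.5% of those without a call. No paired analysis was possible because single samples have no values in these tables, and leaving out a replicate was not run for the same reason.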

Other observations

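Some genes had a fold change and no p in the authors' deposited tables: 1834 of 17734 in C57BL/6J and 78 of 19130 in B6CASTF1. Of those in C57BL/6J, 337 had a mean count of at least 100 and stand outside every count above. They include Oog4, an oogenesin gene, with 37080 in G2 and 29110 in G1, Aspm, a spindle pole protein, with 13220 and 6927, and Tpgs2, of the tubulin polyglutamylase complex, with 17953 and 8198. In C57BL/6J the log2 fold changes, without a p, were 0.35 (SE 0.94) for Oog4, 0.93 (SE 0.98) for Aspm and 1.13 (SE 0.67) for Tpgs2 in the authors' deposited tables. In B6CASTF1 all 3 rose there, by 0.65 (SE 0.18), 1.39 (SE 0.14) and 1.15 (SE 0.14).

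Of 679 tested predicted genes at the minimum mean count of 100, 79 rose (11.6%, beside 7.06% of all tested genes) and 4 fell (0.589%, beside 2.65%), with a median log2 fold change of 0.70. Of those named, 0610009B22Rik had 2291 in MII eggs, 1815 in G1, 11674 in G2 and 356 in 2-cell embryos and rose by 2.69 in the authors' deposited table (adjusted p = 3.1e-13, SE 0.33). The snoRNA host gene Snhg11 had 492 in G2 and 60.1 in G1 and rose by 3.03 in the authors' deposited table (adjusted p = 3.1e-04, SE 0.67).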
